A study of Mus musculus with 2 samples.

Results

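The genes described here are 5 chains of the T cell receptor complex, Trac, Trbc2, Cd3g, Cd3d and Cd3e, taken by their symbols from a table of genes listed for 12 cell clusters of mouse liver. The table names 1755 genes, and all 5 were found in it, in 6 rows: each was listed for the T cell cluster, and Cd3d was also listed for the neutrophil cluster. The cells were primary hepatocyte preparations from fasted 8- to 10-week-old male wild type BALB/c mice. The mice received daily intraperitoneal injections of PBS or of rIL-33, recombinant interleukin-33, at 0.5 µg for 5 days. The livers were digested with Liberase, a mild collagenase blend, and the cells went into droplets without sorting, so that blood and immune cells left in the preparation were sequenced with the hepatocytes. There was 1 3ʹ-end library for PBS and 1 for rIL-33, and the number of mice behind each is not given in the sources used here. The table pools both libraries. All shares below are therefore the authors' pooled values, with no replicate, SD or n, no difference between PBS and rIL-33 could be computed, and no test was run.

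The T cell receptor is a pair of variable chains, most often alpha and beta, each of which ends in a constant part encoded by Trac or by 1 of the beta genes Trbc1 and Trbc2. The receptor chains have almost no cytoplasmic tail, and the signal is carried by the CD3 chains, which pair as epsilon with gamma (Cd3e, Cd3g) and epsilon with delta (Cd3e, Cd3d), and by the zeta chain Cd247. In the liver, conventional alpha beta T cells share the sinusoids with invariant natural killer T cells, gamma delta T cells and natural killer cells.

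In the GENCODE M21 annotation of GRCm38, the assembly the authors call mm10, the 3 CD3 members lie side by side on chromosome 9. Cd3g (chr9:44969572-44980431, minus strand) and Cd3d (chr9:44981786-44987339, plus strand) point away from each other with 1354 bases between them, and Cd3e (chr9:44998740-45009627, minus strand) lies 11400 bases beyond Cd3d. Cd3e overlaps 2 other annotated genes, one of them antisense, and whether the counting used strand is not stated in the sources used here. Trac is on the plus strand of chromosome 14 (chr14:54220521-54224206), and Trbc2 is on the plus strand of chromosome 6 (chr6:41546730-41548352), 6848 bases after its near copy Trbc1 (chr6:41538218-41539881).

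Trbc1 is not a member of the set, but its row is given beside that of Trbc2 because reads from the shared part of the 2 beta genes cannot be assigned to either. The first coding exon of the constant part differs at 1 of 375 bases, and the longest run without a difference is 259 bases. From the third exon to the stop codon, 19 of 128 bases differ, and after the stop codon the annotated ends share 52.7% of aligned positions. The coding sequence from the third exon to the stop codon is shown for both genes, 5ʹ to 3ʹ, with the bases that differ between them in capitals.
Trbc1: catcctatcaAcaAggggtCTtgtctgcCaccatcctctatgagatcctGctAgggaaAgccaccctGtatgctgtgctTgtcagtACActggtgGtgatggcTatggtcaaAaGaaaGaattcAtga
Trbc2: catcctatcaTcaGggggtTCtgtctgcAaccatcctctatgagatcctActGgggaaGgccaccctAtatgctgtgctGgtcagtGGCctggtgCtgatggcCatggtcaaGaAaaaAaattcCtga
Over the whole coding part, 23 of 521 bases differed, an identity of 95.6%. The libraries read the 3ʹ ends of transcripts, where the 2 genes differ most, yet the handling of reads that match both genes is not given in the sources used here, and the split between Trbc1 and Trbc2 is uncertain to that extent.

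A row of the table gives, for 1 gene and 1 cluster, the share of the cluster's cells with a value above 0 and the same share in all other cells. All 5 members were listed for the T cell cluster, against 34.1% of the 1755 genes of the table, and 1 of 5 was listed for the neutrophil cluster, against 12.9%. None of the 5 was listed for the B cell, Kupffer cell, endothelial cell, red blood cell, stellate cell and fibroblast or hepatocyte clusters, and a second table that compares the 5 hepatocyte clusters with each other lists none of them. Not being listed does not give a share of 0, since a row also had to pass the authors' limits, and in every row the larger share was at least 25%. The authors named the clusters by hand from their listed genes, so that the presence of the members in the T cell cluster is no independent support for its name. Some genes were kept out of the authors' clustering, and which ones is not known here.

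**Figure D1:**
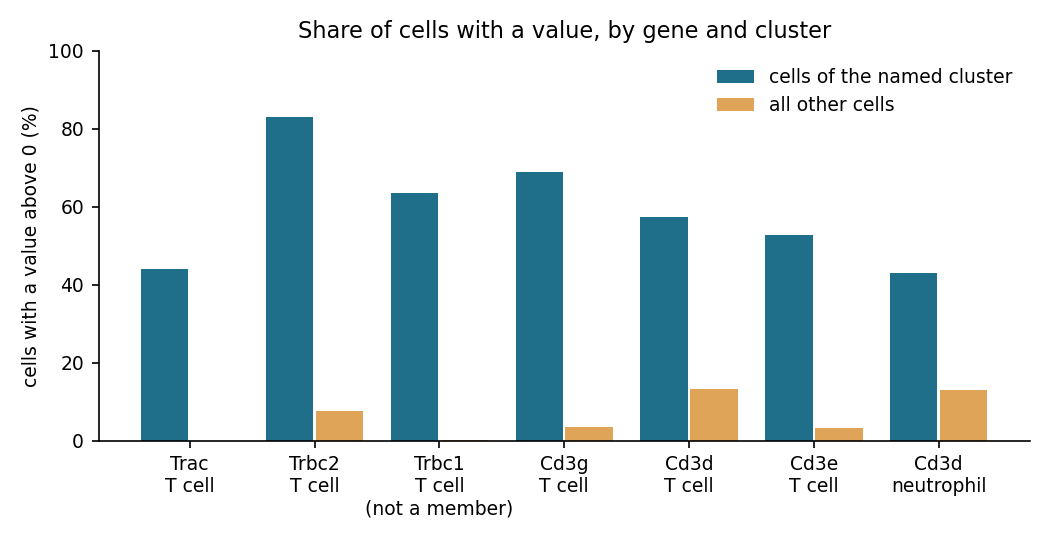
Share of cells with a value above 0 (percent) in the named cluster and in all other cells, for each row of the 5 members and for Trbc1. Trbc2 reaches 83.1% of the T cell cluster, Trac and Trbc1 have almost no cells with a value outside it, and Cd3d has the largest share in other cells, 13.2%.

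Among the receptor chains, Trbc2 had the largest share and Trac the smallest. Trbc2 had a value in 83.1% of the cells of the T cell cluster and in 7.5% of all other cells, 11.1-fold fewer. Trac had a value in 43.9% of the T cell cluster and was listed at 0 in the other cells. With shares deposited to 3 decimals, a 0 means less than 0.05%, so that the share inside was at least 877-fold higher. The alpha chain thus had a value in fewer cells of the T cell cluster than the beta chain but was the member with the fewest cells outside.

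The near copy Trbc1 was close to Trac outside the cluster and lay between the other chains inside it, at 63.5% of the T cell cluster and 0.1% of other cells. Trbc2, which shares most of its coding sequence, had 7.5% in the same other cells. The shares of Trbc1 and Trbc2 in the T cell cluster sum to more than 100%, and at least 46.6% of its cells therefore had a value for both. A mature alpha beta T cell as a rule carries a receptor with 1 beta constant gene, and the source of this overlap was not tested. In the same way at least 27.0% of the cells had both Trac and Trbc2, and at least 39.2% had one of them without the other.

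The 3 CD3 chains each had a value in more than 50% of the T cell cluster. Cd3g, the gamma chain, had a value in 68.9% of its cells and in 3.5% of other cells, a ratio of 19.7. Cd3e, the epsilon chain that both CD3 pairs need, had a value in 52.7% and in 3.2%, a ratio of 16.5. Cd3d, the delta chain, had a value in 57.4% but also in 13.2% of other cells, a ratio of 4.35, the smallest among the members. Cd3d was thus like Cd3e inside the T cell cluster, 4.7 percentage points apart, and stood apart from both other CD3 chains outside it.

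Cells that lacked a value were common for every member. In the T cell cluster 16.9% of cells had no value for Trbc2, 31.1% none for Cd3g, 42.6% none for Cd3d, 47.3% none for Cd3e and 56.1% none for Trac. At least 21.6% of the cells had both Cd3e and Cd3g, at least 10.1% had both Cd3e and Cd3d, and at least 52.0% had both Cd3g and Trbc2, whereas for Cd3e and Trac the shares allow an overlap of 0. A share of cells with a value depends on the transcripts counted per cell as well as on expression, and transcripts per cell are unknown here. The order Trbc2, Cd3g, Cd3d, Cd3e, Trac is therefore an order of shares with a value above 0 in this cluster, and not of transcript amounts. Whether neighbours in it differ beyond counting error was not tested, since the table gives no number of cells per cluster.

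Set among the 598 genes listed for the T cell cluster, the members spread widely. By the difference between both shares Trbc2 ranked 5, Cd3g 14, Cd3e 58, Cd3d 90 and Trac 93, and Trbc1 ranked 19. The median gene of the cluster had a value in 43.2% of its cells and in 17.7% of other cells. All 5 members lay above the first median and below the second, and Trac was closest to the median inside. A share of at least 3% in other cells was the rule for this cluster, with 491 of 598 genes (82.1%), among them Trbc2 and the 3 CD3 chains. A share of 0.1% or less was found for 18 genes, among them Trac and Trbc1, and 8 of the 18 were listed at 0.

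**Figure D2:**
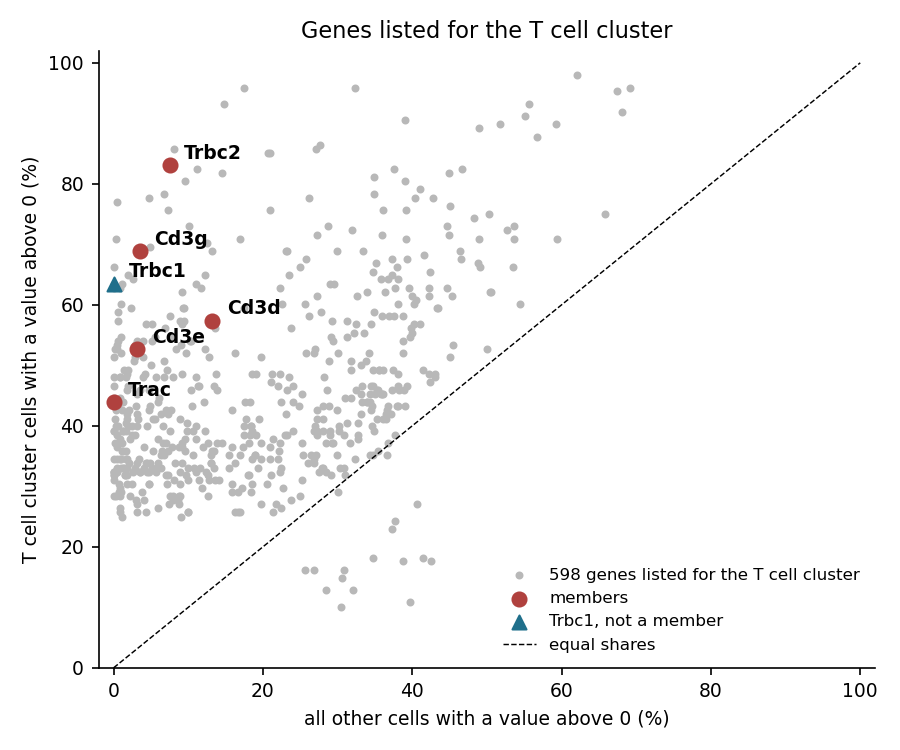
Each point is 1 of the 598 genes listed for the T cell cluster, with the share of all other cells with a value on the x axis and the share of the T cell cluster on the y axis (both percent); the dashed line marks equal shares. Trac and Trbc1 lie on the left edge, Trbc2 lies high at 83.1% against 7.5%, and Cd3d lies farthest to the right among the members, at 13.2%.

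Cd3d was the 1 member listed for a second cluster. It had a value in 43.0% of the neutrophil cluster and in 13.1% of all cells outside that cluster, a ratio of 3.28, and ranked 86 of the 226 genes listed for neutrophils by the difference. The share was 14.4 percentage points lower than in the T cell cluster. The neutrophil cluster was marked by 7 of 12 neutrophil genes, and 0 of these 12 were listed for the T cell cluster. Among the 7 were S100a8 (99.6%, and 46.9% of other cells), Mmp8 (82.3% and 9.1%) and Cxcr2 (74.3% and 1.3%). Of the other T cell genes looked for, the neutrophil cluster listed 4 of 22 signalling genes, Coro1a, Ptprc, Arhgdib and Lcp1, of which Coro1a and Lcp1 bind actin and Ptprc encodes the leukocyte phosphatase CD45. It listed none of Lck, Lat, Skap1 or Themis, none of 12 T lineage transcription factors and neither Trac, Trbc1, Trbc2, Cd3e nor Cd3g. For Trac the share in neutrophils was at most 2.35%.

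Cd3d shared its pair of clusters, T cells and neutrophils and no other, with 15 more genes. Of these 16 genes, 10 had the larger share in T cells. Anxa1, the anti-inflammatory protein annexin A1, and Pglyrp1, a peptidoglycan-binding protein of neutrophil granules, leaned to neutrophils, with 78.9% and 84.4% there against 37.2% and 39.9% in T cells. Hcst, the signalling adaptor DAP10, leaned to T cells as Cd3d did, with 67.6% against 49.8%. Il16, a chemoattractant for CD4+ cells, had 43.2% against 25.7%. The table lists 131 genes for both clusters, which are 21.9% of the T cell genes and 58.0% of the neutrophil genes.

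The shares also tell where the cells with a value lay, once the size of each cluster is known. A gene listed for several clusters ties their sizes together, because both shares of every row must add up to the same share of all cells. From 1115 such genes the T cell cluster held 1.32% of all cells, the neutrophil cluster 2.10%, the B cell cluster 2.19%, the Kupffer cell cluster 2.68% and the 5 hepatocyte clusters 90.0% together. Of all cells with a value for Trac, 100% lay in the T cell cluster, and rounding allows a share as low as 92.1%. The same share was 89.5% for Trbc1 (85.0% to 94.5%), 20.8% for Cd3g (20.6% to 21.1%), 18.0% for Cd3e (17.8% to 18.3%), 12.9% for Trbc2 (12.8% to 13.0%) and 5.49% for Cd3d (5.46% to 5.53%). Each range spans the rounding of the shares and the other fits of the cluster sizes.

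**Figure D3:**
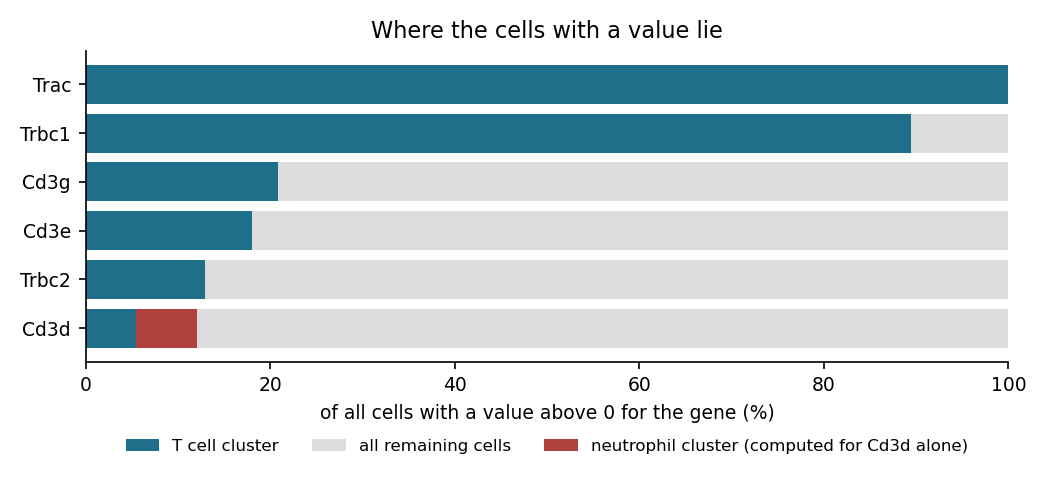
For each gene, the bar divides all cells with a value above 0 into those in the T cell cluster, those in the neutrophil cluster (computed for Cd3d alone) and the rest (percent of the cells with a value). Trac and Trbc1 lie almost wholly in the T cell cluster, whereas 79.2% or more of the cells with a value for Cd3g, Cd3e, Trbc2 or Cd3d lie outside it.

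Outside a small cluster, a low share amounts to many cells. Cells with Trbc2 outside the T cell cluster made up 7.40% of all cells, 5.62 times the size of the cluster itself. The same cells came to 2.62 times the cluster for Cd3g, 2.40 times for Cd3e and 9.88 times for Cd3d. All clusters other than T cells and hepatocytes held 8.70% of the cells. By size alone, the outside cells of Trbc2, Cd3g and Cd3e could all lie in these clusters. They could also be spread over hepatocytes, at up to 8.22%, 3.84% and 3.51% of them. For Trbc2 the first case would place 7.40% of all cells within that 8.70%. Neither Trbc2, Cd3g nor Cd3e was listed for any of these clusters, and what share a missing row allows was not tested. The sizes alone do not decide between these cases.

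For Cd3d the shares, taken as they stand, do so in part. Over all cells 13.8% had a value, of which 5.49% lay in the T cell cluster and 6.55% in neutrophils. The remaining 88.0% lay in the other 10 clusters, where 12.6% of cells had a value. Even if every B cell, Kupffer cell, endothelial cell, red blood cell and stellate cell or fibroblast had one, at least 6.14% (6.02% to 6.32%) of the hepatocytes would have a Cd3d value. That range covers rounding and the fits of the cluster sizes only. In rows shared with the comparison of hepatocyte clusters alone, shares here were a median of 10.5 percentage points higher, which is more than the 6.14% itself. Of these rows, 385 came from the cluster Hepatocyte4 and 409 from Hepatocyte5. Hepatocyte1, with 49.9% of all cells, gave 10. The differences ran from -6 to 51.7 percentage points. What a value above 0 stands for in hepatocytes is uncertain to that extent. Trac could be present in at most 0.0548% of hepatocytes, 2.26% of B cells and 1.84% of Kupffer cells, while the smaller clusters set looser limits, up to 30.2% of the stellate cell and fibroblast cluster.

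A hepatocyte gene also had values above 0 in the T cell cluster. Alb, the albumin gene, had a value in at least 96.8% of the T cell cluster, and none of 10 hepatocyte genes was listed for it. Whether the Alb values stand for hepatocyte transcripts in the same droplets was not tested. The part of free RNA and of droplets with more than 1 cell in the shares of the members was not tested either. The 2 tables also gave different shares for the same cluster: of 825 rows for the same gene and hepatocyte cluster in both tables, 704 had a higher share in the table of all cells, 104 the same and 17 a lower one, with a median of 10.5 percentage points higher. By cluster, the median ran from 0.5 percentage points in Hepatocyte2 (7 rows) to 14.55 in Hepatocyte1 (10 rows). Whether a cluster holds the same cells and values in both tables is not given in the sources used here. No member is in the hepatocyte table, so whether its share inside or outside the T cell cluster is higher in this way was not tested.

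The rest of the receptor pathway was listed for the T cell cluster in unequal parts. Of 22 genes of proximal T cell receptor signalling, 17 were listed (77.3%, beside 34.1% of all genes of the table), with a median of 50.7% of the T cell cluster and 6.0% of other cells, beside 57.4% and 3.5% for the 5 members. The lists also hold genes listed for no cluster, which the 1755 genes do not. Lck, the kinase that phosphorylates the CD3 chains, had 52.7% and 2.9%, which is nearly the row of Cd3e. Lat, the membrane scaffold of the signal, had 48.0% and 0.1%, and its adaptor partner Lcp2 (SLP-76) had 50.7% and 6.8%. Skap1, an adaptor of integrin activation, had 62.8%, and Themis, a T lineage signalling protein, had 32.4%, both with 0 in other cells. Ptprc had 93.2% and 14.8%.

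Zap70, the kinase that binds the phosphorylated CD3 chains, was not listed, nor were Sh2d2a, Sla2, Vav1 and Plcg1. Of 6 further receptor chains, Trbc1 was listed and Cd247, the zeta chain, was not. The gamma delta constant genes Trdc, Trgc1, Trgc2 and Trgc4 were not listed for any cluster. The coreceptor genes Cd4, Cd8a and Cd8b1 were not listed either, among 19 surface molecules of which 9 were (47.4%, beside the same 34.1%). Those listed included Il7r, the interleukin-7 receptor, at 77.0% and 0.4%, Thy1 at 51.4% and 0.1%, the adhesion receptor Cd2 at 54.7% and 1.0%, and the costimulatory receptor Cd28 at 43.2% and 0.4%.

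**Figure D4:**
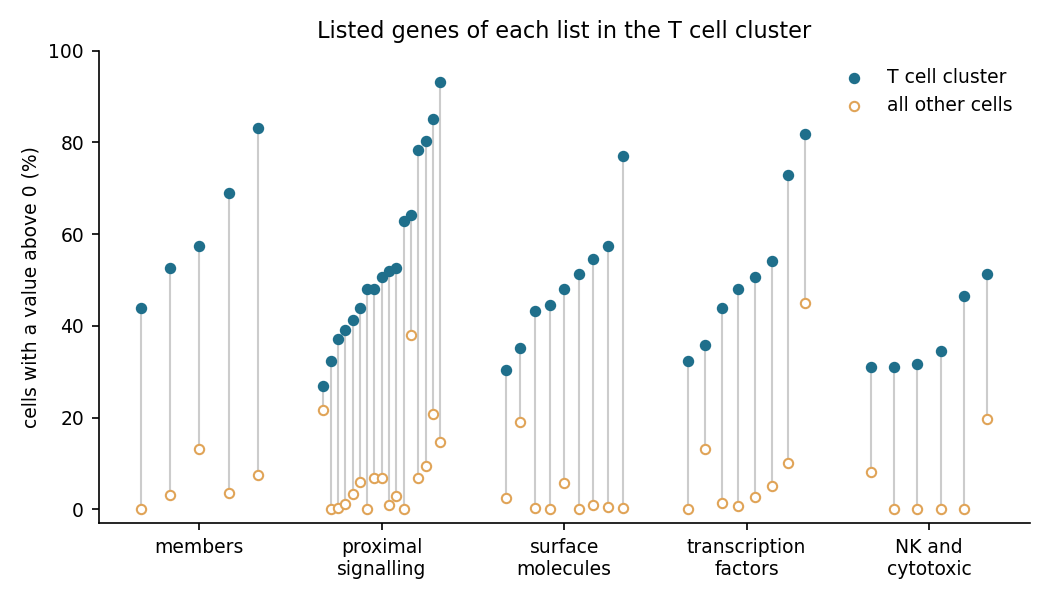
Every gene of 5 lists that was listed for the T cell cluster, with filled points for the share of the cluster's cells with a value, open points for all other cells (both percent) and a line joining them. The members run from 43.9% to 83.1% inside, the 17 signalling genes from 27.0% to 93.2%, and the 6 natural killer and cytotoxic genes from 31.1% to 51.4%.

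Of 12 transcription factors of the T lineage, 8 were listed (66.7%, beside 34.1%). Ets1 had 73.0% and 10.1%, Runx3 50.7% and 2.7%, and Bcl11b, required for T cell commitment, 48.0% and 0.8%. Lef1 had 32.4% with 0 in other cells, and its relative Tcf7 had 35.8% and 13.2%. Gata3, Tbx21, Tox and Ikzf3 were not listed.

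Markers of other lymphocytes were counted for the same cluster. Of 20 natural killer and cytotoxic genes 6 were listed for it (30%), and the rest of this list was listed for no cluster. The 34.1% of all genes is taken over genes listed for some cluster, and on that base all 6 were listed for T cells. Among the 6 were Nkg7 (46.6% and 0.1%), Ccl5 (51.4% and 19.7%), Klrk1 (31.8% and 0.1%) and Xcl1 (31.1% and 0). The natural killer receptor genes Ncr1 and Klrb1c were not listed. Whether every gene of this list marks natural killer cells in BALB/c mice was not tested. Of 10 genes of group 2 innate lymphoid cells 2 were listed for some cluster. For the T cell cluster 1 was listed, Il17rb at 34.5% and 18.5%. None of 11 B cell, 12 neutrophil or 10 Kupffer cell markers was listed for the cluster, and of 8 endothelial genes Pecam1, which leukocytes also carry, was, at 35.8% and 5.3%. The part of natural killer or innate lymphoid cells in the shares of the members was not tested.

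Away from the T cell cluster the signalling list was shorter, with 6 of 22 genes (27.3%) listed for B cells, 5 (22.7%) for Kupffer cells, 4 (18.2%) for neutrophils and 2 (9.09%), Arhgdib and Fyn, for the stellate cell and fibroblast cluster. Over all genes of the table the shares listed were 29.1%, 28.4%, 12.9% and 30.5%. These are taken over genes listed for some cluster, which 17 of the 22 are. On that base the list gave 6, 5, 4 and 2 of 17, against all 17 for T cells. In all, 117 of the 598 T cell genes (19.6%) were listed for T cells alone. All members but Cd3d belong to these 117.

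The genes whose pair of shares lay nearest to each member in the T cell cluster were Ltb, Coro1a and Fxyd5 for Trbc2, within 3.77 percentage points, and Cxcr6, Cd28 and Ikzf2 for Trac, within 0.922. Lsp1, Gimap7 and Gimap4 were nearest to Cd3g, within 4.31, and Lck, Arhgap15 and Gimap8 to Cd3e, within 0.806. For Cd3d they were Fermt3, Arhgap30 and Inpp4b, within 4.04, and in the neutrophil cluster Jaml, Msn and Cd24a, within 1.70. Likeness here is a distance over 1 cluster and its reference, and in dense parts of the plot of T cell genes many genes lie that close.

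Shares in other cells were 13.2% for Cd3d, 3.5% for Cd3g and 3.2% for Cd3e, and a link between these shares and promoter sequence was not tested. The promoters of the 3 neighbouring CD3 genes are shown as a description. Each is the 250 bases before the RefSeq start in GRCm38.p6, 5ʹ to 3ʹ on the gene's strand, at chr9:44980432-44980681 for Cd3g (minus strand), chr9:44981536-44981785 for Cd3d (plus strand) and chr9:45009612-45009861 for Cd3e (minus strand). Capitals mark the letters AGGAAG or CTTCCT, a core bound by ETS factors, TGTGGT or ACCACA, bound by RUNX factors, and CTTTGA or TCAAAG, bound by TCF and LEF factors, searched on both strands.
Cd3g: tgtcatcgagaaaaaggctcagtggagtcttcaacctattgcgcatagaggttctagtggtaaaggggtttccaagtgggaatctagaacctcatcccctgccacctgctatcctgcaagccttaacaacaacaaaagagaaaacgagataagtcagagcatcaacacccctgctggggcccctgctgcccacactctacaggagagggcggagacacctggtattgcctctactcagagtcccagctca
Cd3d: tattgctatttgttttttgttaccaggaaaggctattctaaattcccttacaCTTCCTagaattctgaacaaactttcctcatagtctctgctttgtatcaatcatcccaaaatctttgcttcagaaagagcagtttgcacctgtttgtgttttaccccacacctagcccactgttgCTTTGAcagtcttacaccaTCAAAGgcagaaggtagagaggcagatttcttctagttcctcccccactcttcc
Cd3e: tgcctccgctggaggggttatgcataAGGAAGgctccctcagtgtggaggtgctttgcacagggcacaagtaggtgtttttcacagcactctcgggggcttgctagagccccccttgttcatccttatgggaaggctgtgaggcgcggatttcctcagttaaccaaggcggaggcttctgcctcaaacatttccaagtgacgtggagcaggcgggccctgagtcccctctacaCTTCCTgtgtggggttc
The ETS letters occurred 1 time in the Cd3d window and 2 times in that of Cd3e, and 29.5% of 32851 promoter windows of the same length hold them. The TCF and LEF letters occurred 2 times, in the Cd3d window, 73 and 54 bases before the start, and 13.8% of all windows hold them. The RUNX letters, which 14.0% of windows hold, were in none of the 3, and the Cd3g window held no match to any of the motifs. Matches of 6 letters describe these windows and do not mark bound sites. The promoter table has an entry for 3 of the 5 members, and Trac and Trbc2 are constant genes transcribed after rearrangement from starts upstream.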

How the data were processed

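Droplet-based 3ʹ libraries of primary hepatocyte preparations from PBS- and rIL-33-injected mice, 1 each, were counted by the authors with Cell Ranger on mm10. Per the methods, the authors removed cells with too many or too few detected genes or a high mitochondrial share, normalized and log-transformed the counts, clustered the merged cells in Seurat and listed markers of each cluster against all other cells with FindAllMarkers. No count per cell was analysed here. The deposited fractions, printed as percentages, were made by the authors and give the proportion of cells in which a gene's value exceeded 0, for a cluster and for its reference cells. The depth per sample is unknown, and although the study states how many cells it analysed, the tables give no number of cells per cluster, so no interval for counting error was computed, and rounding to 3 decimals sets the stated ranges. The deposited columns of log2 fold changes, p-values and adjusted p-values hold the authors' own comparisons and were not used. For the same reason the members were described by their shares and not by their mean change.

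The members and gene lists were chosen with earlier results of these data known, and T cell rows of the table had been seen in the paper's source data. Named genes were the members in every row, listed genes of the lists, the 3 genes nearest to a member by Euclidean distance between pairs of shares, and genes with the same clusters as a member listed for at least 2. Cluster sizes were solved by least squares from genes listed for at least 2 clusters, and the solver was tested on simulated data. No doublet caller was run. Some listed genes are counted but not reported by name here. Alternatives were a minimum gap of 10 percentage points between both shares, least absolute deviations, a fit without the receptor genes, the neutrophil row of Cd3d, stricter limits on listed rows and ranks by ratio with 0.1 percentage points added to both shares. Coordinates are from GENCODE M21 and promoters from RefSeq (GRCm38.p6). Analyses were run in Python 3.11.15 with SciPy 1.17.1, pandas 2.3.3, NumPy 2.4.6 and Matplotlib 3.10.9.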

Additional observations from a re-analysis of the deposited data

How the results depend on the processing

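Of 47 alternative values, 36 stayed the same within the rounding of the shares or within 1.5 times, and 11 moved. The cluster sizes, the shares of all cells and the shares of value-holding cells in the T cell cluster were the same with rows at least 10 percentage points apart, with least absolute deviations and, for the sizes, without the receptor genes. The share of all cells with Cd3d was 13.7% from its neutrophil row in place of 13.8%. With a limit of 50% on the share inside the T cell cluster, 9 signalling genes, 4 surface molecules, 4 transcription factors, 1 natural killer or cytotoxic gene and 0 genes of group 2 innate lymphoid cells stayed listed. By ratio in place of difference, Trac ranked 2 of 598, Cd3g 90, Cd3e 104, Trbc2 125 and Cd3d 215, so that Trac went from the last of the members to the first. No paired analysis was possible because both libraries are pooled in the table and each condition has 1. The number of cells per cluster, the depth per cell and the share of free RNA, none of which the table gives, limit every share.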
